A study of Homo sapiens with 12 samples.

Results

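The genes described here are 10 early response genes: EGR1, EGR2, EGR3, IER2, IER3, IER5, KLF4, KLF6, KLF10 and MYC. They were chosen by name and found through their Entrez gene number in lists of m6A peaks, and all 10 carried a peak in at least 1 list, among 10536 genes with a peak in any list. The cells were 143B, an established human osteosarcoma line. They were transfected for 48 h with siRNA against ALKBH5, an enzyme that takes the methyl group off N6-methyladenosine (m6A) in RNA, or with scrambled siRNA, here called the control. In the assay, MeRIP-seq, RNA fragments bound by an antibody against m6A are sequenced. The series held 12 samples in 4 groups of 3, and the peak lists of the 6 immunoprecipitates (3 knockdown and 3 control) were analysed here. The 6 inputs were not. Per the protocol in the labels, replicates 1 and 3 used polyadenylated RNA with different antibodies, and replicate 2 used total RNA with a kit and a further antibody. The per-sample antibody label gives 1 antibody throughout, so that difference rests on the protocol. A replicate number therefore stands for 1 method, and knockdown and control of the same number are called a pair. Where 3 values are given for a condition, they stand in the order of replicates 1, 2 and 3. Nothing in the labels says that the numbers were separate cultures, so p-values measure only the spread between these libraries.

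Early response genes are switched on within minutes by growth factors, serum or stress, without the need for new protein. Their mRNAs are short-lived. Many encode transcription factors, and m6A, which is bound by reader proteins that shorten or lengthen the life of an mRNA, is one of the marks known on such transcripts. The EGR proteins are zinc finger transcription factors induced through serum response elements, the KLF proteins are zinc finger factors that bind GC-rich DNA, and MYC is the transcription factor of growth and proliferation whose mRNA is bound by the IGF2BP family of m6A readers. The IER proteins are products of intronless or short early genes.

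A serum response element holds the CArG box, the sequence bound by serum response factor. It is shown here for EGR1 and EGR2, the genes of the 10 in which a window searched held a box. The stretches shown are cut around the boxes from longer windows of the RefSeq promoter table (GRCh38.p14). They are written 5′ to 3′ on the strand of the gene, with each CArG box in capitals. The stretch of EGR1 lies at chr5:138465334-138465445 on the plus strand, and that of EGR2 at chr10:62816388-62816477 on the minus strand.
EGR1: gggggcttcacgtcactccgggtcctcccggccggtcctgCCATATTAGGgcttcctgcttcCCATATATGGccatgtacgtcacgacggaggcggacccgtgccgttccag
EGR2: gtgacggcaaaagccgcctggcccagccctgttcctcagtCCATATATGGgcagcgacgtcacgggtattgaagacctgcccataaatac
The table held a window for 6 of the 10 genes (EGR1, EGR2, IER2, IER5, KLF4 and KLF6). Within the 250 bases before the start, a CArG box on either strand was found in EGR1, with 2 boxes that begin 105 and 83 bases before the start, and in 1 of the 3 windows of EGR2, with 1 box that begins 71 bases before it. The box was present in 1.16% of all 35116 windows of this length in the table. The GC-rich hexamer GGGCGG was found on either strand in EGR2, IER2, KLF4 and KLF6, against 42.6% of all windows. TGACG, part of the cyclic AMP response element, was found on either strand in EGR1, EGR2, IER2 and KLF4 (21.2% of all windows), and the full element TGACGTCA in none of the 6 (1.65%). No CArG box overlapped a match of another motif. Such matches describe the DNA and are no measure of binding or of RNA methylation.

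The lists gave a position, exon blocks and a score for each peak and no read counts, so the depth behind a value is unknown. They held between 5677 and 18724 peaks, and the exon length inside peaks was 5746, 1084 and 7855 kb in the knockdown libraries, against 3661, 961.2 and 7854 kb in the control libraries. The lists of replicate 2 were the shortest, and the knockdown list of replicate 1 was longer than its control. ALKBH5, the target of the siRNA, had no peak in the 3 knockdown libraries and peaks in 2 control libraries, which is no measure of its RNA. Of 9 markers of the osteoblast lineage, RUNX2, COL1A1, SPP1 and BGLAP carried a peak in some library. SP7, COL1A2, SPARC, ALPL and IBSP carried none, and neither did the 8 markers of blood, epithelium and endothelium. A peak is not an RNA level, and a missing peak does not show that RNA or methylation was absent. Behind a missing call, less methylation, less RNA and a shallower library cannot be told apart, and in bulk RNA neither can fewer cells with a transcript and less of it per cell.

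The 10 genes held 88 peaks, which joined into 19 sites where peaks overlapped on the same strand. Of the genes, 7 were called (had a peak) in all 6 libraries, namely IER2, IER3, IER5, KLF4, KLF6, KLF10 and MYC, against 23.3% of all genes with a peak. The other 3 were the EGR genes. EGR1, EGR2 and EGR3 were each called in fewer knockdown than control libraries, and no gene of the 10 was called in more. The 7 genes called in all 6 libraries could not differ in this count, so only the EGR genes had room to. Over all genes, 17.1% were called in fewer knockdown libraries and 26.1% in more. With only the best-scored 50% of each list kept, 3 of the 10 genes were called in more knockdown libraries, and EGR1 in 2 libraries of each condition. Of the 19 sites, 7 were called in all 6 libraries (12.7% over all sites), 5 were called only in control libraries (16.3% over all sites), 0 only in knockdown libraries (16.1%) and 14 in both conditions (67.6%).

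EGR1, the best known early transcription factor of the family, carried 2 sites on the plus strand of chromosome 5 (hg19, as are all peak positions). The first site lay at chr5:137802645-137803063 and was called in replicates 1 and 3 of both conditions. There the knockdown peak was 359 nt long in both replicates, and the control peak 121 nt in replicate 1 and 419 nt in replicate 3. The second site, at chr5:137803511-137804108, was called in all 3 controls (210, 181 and 598 nt) and in knockdown replicates 1 and 3 (389 and 479 nt). In sum, the exon length of EGR1 inside peaks was 748, 0 and 838 nt in the knockdown and 331, 181 and 1017 nt in the controls. The knockdown was longer in replicate 1, where every control base lay inside the knockdown peaks, and shorter in replicates 2 and 3. In replicate 3 the knockdown peaks lay wholly inside those of the control and held 82.4% of its bases. The groups overlapped, with means of 529 ± 460 nt (SD, n = 3) in the knockdown and 510 ± 446 nt (SD, n = 3) in the control (two-sided exact permutation test, p = 1). The total RNA library of the knockdown had no EGR1 peak, while that of the control had 1 at percentile 47.7 of its list. A percentile here is the share of the same list with a worse score, so 100 is the best peak, and it is not compared between lists as a change.

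**Figure D1:**
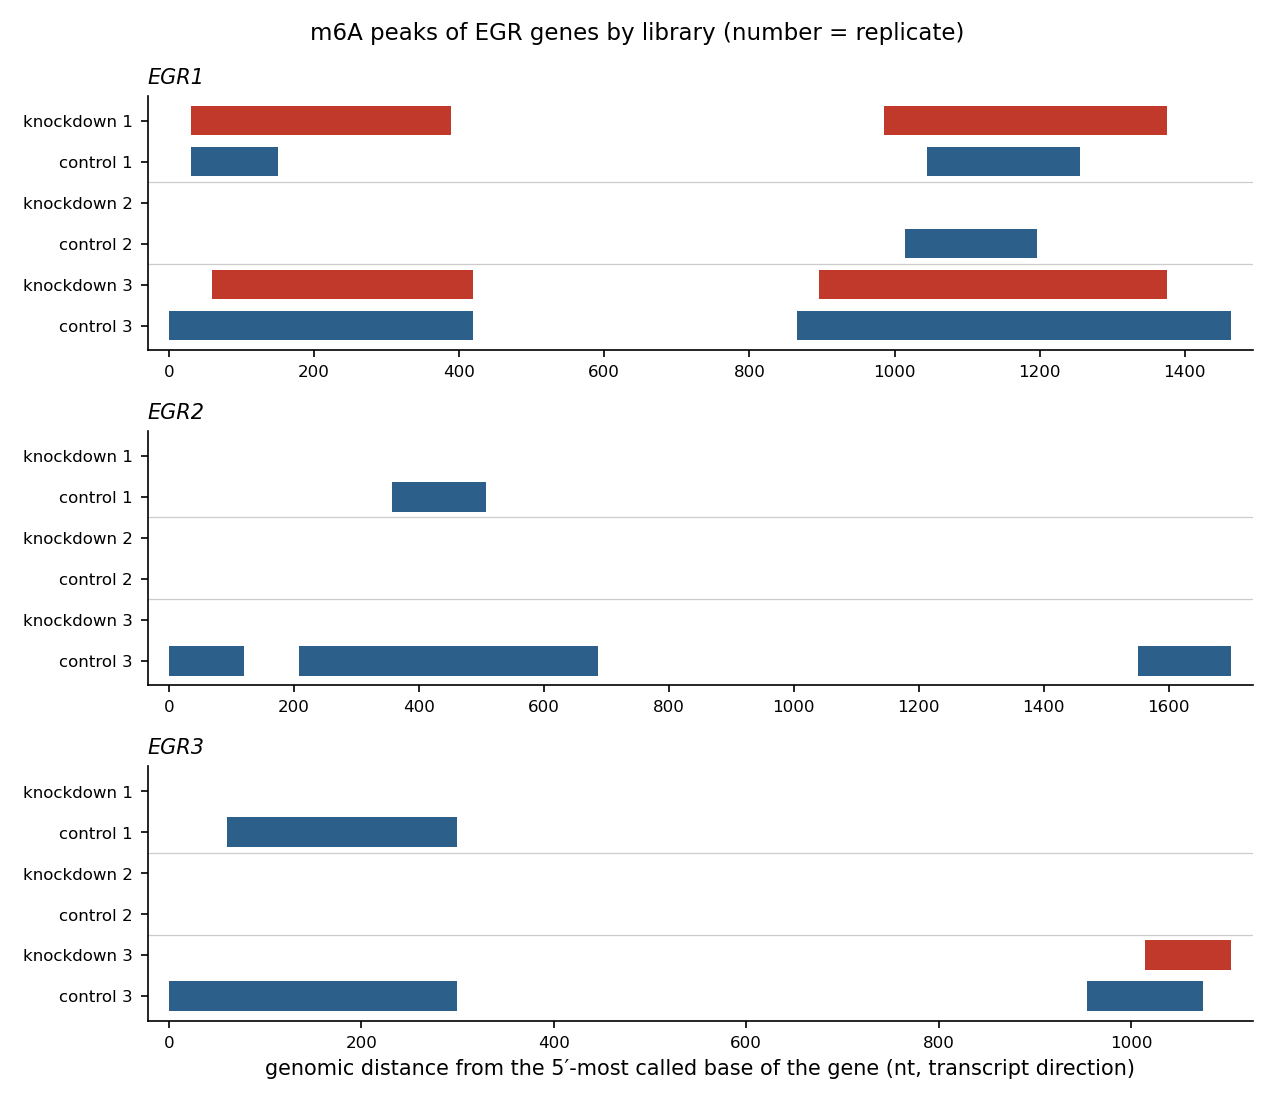
Peaks of EGR1, EGR2 and EGR3 in the 6 libraries, with knockdown in red and control in blue, replicates 1 to 3 from top to bottom, and the x axis in nt of genomic distance from the most 5′ called base of each gene. EGR2 has peaks only in control replicates 1 and 3, and the longer EGR3 site, toward the 5′ end, only in the same 2 controls.

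EGR2, a factor of myelination and T cell tolerance, had no peak in any knockdown library and was called in control replicates 1 and 3. Control replicate 1 had 1 peak of 150 nt at percentile 53.9, and control replicate 3 had 3 peaks of 120, 478 and 150 nt. The peaks of both controls met at 1 site, chr10:64573455-64573932 on the minus strand, where that of control replicate 3 ranked at percentile 64.4 and enclosed that of control replicate 1. The other EGR2 sites, at chr10:64574021-64574140 and chr10:64572441-64572590, were called in control replicate 3 alone, at percentiles 12.5 and 1.87, among the weak calls of that list. Neither library of replicate 2 had a peak in EGR2. The covered length was thus 0, 0 and 0 nt in the knockdown and 150, 0 and 748 nt in the controls, a difference of means of -299.3 nt (exact permutation test, two-sided, p = 0.4). Genes without a call in the knockdown and with calls in at least 2 controls made up 0.883% of all genes, 93 in number, EGR2 among them.

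EGR3, which acts beside EGR1 and EGR2 in neurons and lymphocytes, showed 2 sites on the minus strand of chromosome 8. The first, chr8:22548395-22548693, was called in control replicate 1 with 239 nt at percentile 60.8 and in control replicate 3 with 299 nt at percentile 43.3. No knockdown library had a peak there. The second, chr8:22547590-22547739, was called in replicate 3 of both conditions, with 90 nt in the knockdown and 121 nt in the control, of which 61 nt were shared. Both calls of the second site were near the bottom of their lists, at percentiles 2.02 and 3.0. The covered length was 0, 0 and 90 nt in the knockdown and 239, 0 and 420 nt in the controls, or -189.7 nt between the means (exact permutation test, two-sided, p = 0.4). The EGR genes together held 7 sites, or 21 with each counted once per pair. In the full lists, 7 of these 21 were called in a control and not in its knockdown and 0 the other way. Over all sites, the shares were 8.87% and 12.8%. Those shares include sites called in all 6 libraries, which cannot change, and no EGR site was one of them.

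IER2, a nuclear early protein linked to cell motility, had a single site at chr19:13263851-13265273 on the plus strand, called in all 6 libraries. Its peak covered 1394, 476 and 1275 nt in the knockdown and 623, 416 and 1068 nt in the controls. The knockdown peak was the longer in every pair, by 771, 60 and 207 nt, and enclosed the control peak completely each time. The conditions still overlapped across methods, since knockdown replicate 2 was shorter than control replicates 1 and 3. The difference of means was 346.0 nt, with 1048 ± 499 nt in the knockdown and 702 ± 333 nt in the control (SD, n = 3 each; two-sided exact permutation test, p = 0.3). With the pairs kept, p was 0.25 in the exact sign-flip test, which is the floor of that test for 3 pairs. The IER2 peaks ranked at percentiles 97.1, 68.3 and 91.0 in the knockdown lists and 90.3, 62.9 and 73.3 in the controls. A stretch of 416 nt, chr19:13264592-13265007, lay inside the peak of every library. Each list also held 1 peak with no gene number on the same strand within the IER2 site, of 643, 118 and 643 nt in the knockdown and 264, 60 and 526 nt in the controls. These unnamed peaks lay inside the IER2 peak of their own library, except for a few bases in control replicates 1 and 2, and were not counted for IER2.

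IER5, an early protein that binds phosphatase PP2A and heat shock factor HSF1, had 1 joined site over 1957 nt at chr1:181057934-181059890 on the plus strand. Its peaks covered 1749, 804 and 1957 nt in the knockdown, the most of the 10 genes in each of those libraries, and 1484, 327 and 1425 nt in the controls. As for IER2, the knockdown was longer in each pair, by 265, 477 and 532 nt, and its peaks held every control base. In replicates 1 and 3 the knockdown showed 1 unbroken peak where the control lists showed 2 and 3 peaks, and in replicate 2 the knockdown had 3 peaks and the control 1. The IER5 peaks of knockdown replicates 1 and 3 stood at percentiles 93.7 and 94.2. The groups overlapped here too (means 1503 ± 615 and 1079 ± 652 nt, SD, n = 3 each; two-sided exact permutation test, p = 0.5; exact sign-flip test of the pairs, p = 0.25). All libraries shared the 327 nt at chr1:181058853-181059179, which is the whole peak of control replicate 2.

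IER3, an early regulator of cell survival also called IEX-1, was called in every library at 1 joined site, chr6:30711183-30711891 on the minus strand, with no base common to all 6. Its peaks covered 443, 89 and 649 nt in the knockdown and 179, 90 and 680 nt in the controls. The knockdown was longer in replicate 1, where a single peak at percentile 71.9 spanned the 2 weak control peaks (percentiles 15.7 and 14.0). In replicate 2 the knockdown and control peaks lay side by side and shared 1 nt. In replicate 3 they shared 620 nt and the control was longer by 31 nt. The difference of means of IER3 was 77.3 nt (exact permutation test, two-sided, p = 1).

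**Figure D2:**
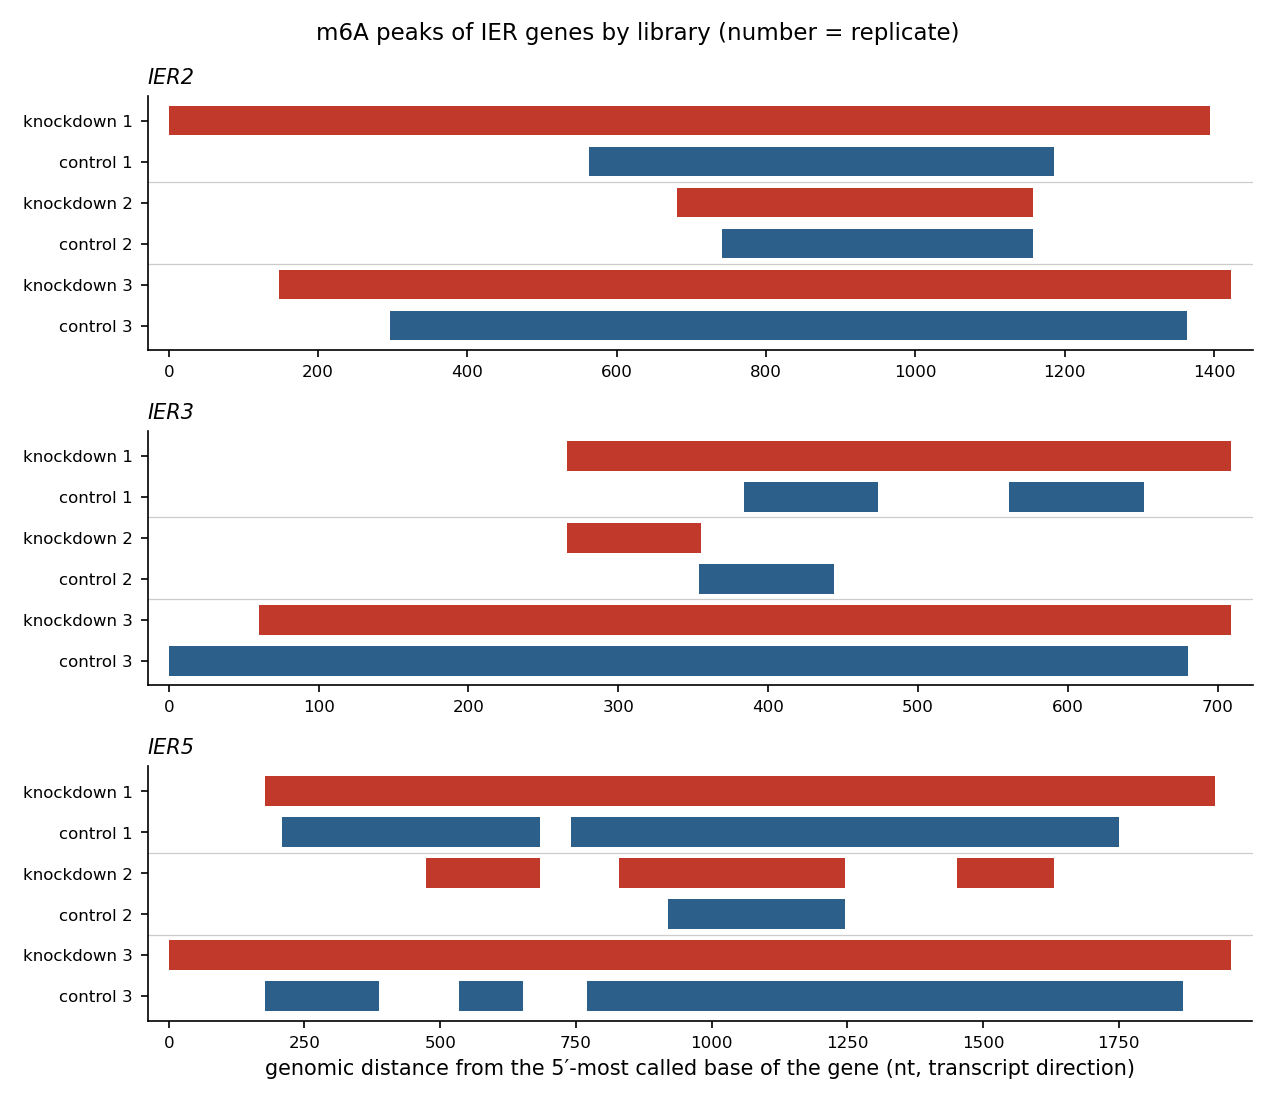
Peaks of IER2, IER3 and IER5 in each library (knockdown red, control blue), drawn against genomic distance in nt from the most 5′ called base. In IER2 and IER5 each knockdown peak set encloses that of its control, while in IER3 the replicate 2 peaks lie next to each other.

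Being longer in the knockdown in all 3 pairs was not rare: it held for 13.0% of all genes and for 34.1% of the 2452 genes called in all 6 libraries. Of the 7 early genes called in all 6, IER2 and IER5 showed it, a share close to that background. None was shorter in all 3 pairs (2.08% of the 2452). Control bases that lay wholly inside the knockdown bases in every pair were less common, at 6.36% of the 2452 genes (156 genes, against 7 genes or 0.285% for the reverse), and IER2 and IER5 were the members that had it.

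KLF4, a reprogramming and differentiation factor, had its main site at chr9:110247550-110250615 on the minus strand, called in all 6 libraries. The covered length of KLF4 was 1374, 360 and 1906 nt in the knockdown and 479, 150 and 2025 nt in the controls. Replicates 1 and 2 were longer in the knockdown, 2.87-fold and 2.40-fold, and replicate 3 was slightly shorter, at 0.941. The call was broken into 5 peaks in knockdown replicate 1 and 4 in control replicate 1, whereas in replicate 3 a single peak of 1906 nt (knockdown) or 1816 nt (control) ran over the same stretch. Peaks of 4 libraries, both conditions of replicates 1 and 3, crossed the same junction, with exon ends at 110248207 and 110249309 and a gap of 1101 nt. A second, more 5′ site at chr9:110251305-110251630 was called in knockdown replicate 1 (90 nt, percentile 6.86) and control replicate 3 (209 nt, percentile 31.0). The means of KLF4 were 1213 ± 785 and 885 ± 1001 nt (SD, n = 3 each), well inside the spread between methods (two-sided exact permutation test, p = 0.8).

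KLF6, a broadly expressed factor often altered in tumours, had 3 sites on the minus strand of chromosome 10. The site nearest the 5′ end, chr10:3823819-3827204, was called in all 6 libraries and shared 210 nt among them, chr10:3824088-3824297. Its peaks in knockdown replicates 1 and 3 and control replicate 3 crossed a junction with a gap of 2698 nt, and the peaks of control replicate 1 and of replicate 2 stopped short of it. The middle site, chr10:3823431-3823759, was called in replicates 1 and 3 of both conditions, at 210 and 269 nt in the knockdown and 150 and 269 nt in the control. The last, chr10:3821713-3822564, was called in knockdown replicates 1 and 3 and in control replicate 3, with 61, 240 and 60 nt. The peaks of knockdown replicate 1 and control replicate 3 shared no base there and were joined through that of knockdown replicate 3. In all, KLF6 covered 809, 210 and 1137 nt in the knockdown and 569, 240 and 1017 nt in the controls. The knockdown was longer in replicates 1 and 3 and 30 nt shorter in replicate 2 (difference of means 110.0 nt, exact permutation test, two-sided, p = 0.8).

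KLF10, the TGF-beta-inducible early gene TIEG1, had 2 sites on the minus strand of chromosome 8. The site toward the 3′ end, chr8:103662166-103663518, was called in every library. In replicate 3 the peaks of knockdown and control had the same ends and the same 2 blocks, 596 nt with a gap of 757 nt. The second site, chr8:103663726-103664172, was called in replicates 1 and 3, with 239 and 418 nt in the knockdown and 120 and 417 nt in the controls. KLF10 covered 567, 91 and 1014 nt in the knockdown and 300, 209 and 1013 nt in the controls. The pairs went different ways: 267 nt longer in replicate 1, 118 nt shorter in replicate 2 and 1 nt apart in replicate 3. The difference of means was 50.0 nt (exact permutation test, two-sided, p = 0.9).

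MYC was called in all 6 libraries at chr8:128752815-128753561 on the plus strand. The replicate 3 peaks of knockdown and control were identical in position, at 747 nt each. In replicate 1 the peaks at this site covered 359 nt in the knockdown and 299 nt in the control, from the same first base. In replicate 2 the knockdown had 2 peaks of 121 and 150 nt, and the control had 1 of 61 nt at percentile 6.82, which is the stretch chr8:128753203-128753263 that all 6 libraries share. A further peak of 150 nt, at chr8:128750933-128751082, was listed in control replicate 1 alone, at percentile 6.97. MYC in total covered 359, 271 and 747 nt in the knockdown and 449, 61 and 747 nt in the controls. The sign differed between replicates 1 and 2 and the lengths tied in replicate 3 (difference of means 40.0 nt, exact permutation test, two-sided, p = 1). The best MYC peak stood at percentiles 84.4, 43.4 and 72.1 in the knockdown lists and 91.6, 6.82 and 91.8 in the controls.

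**Figure D3:**
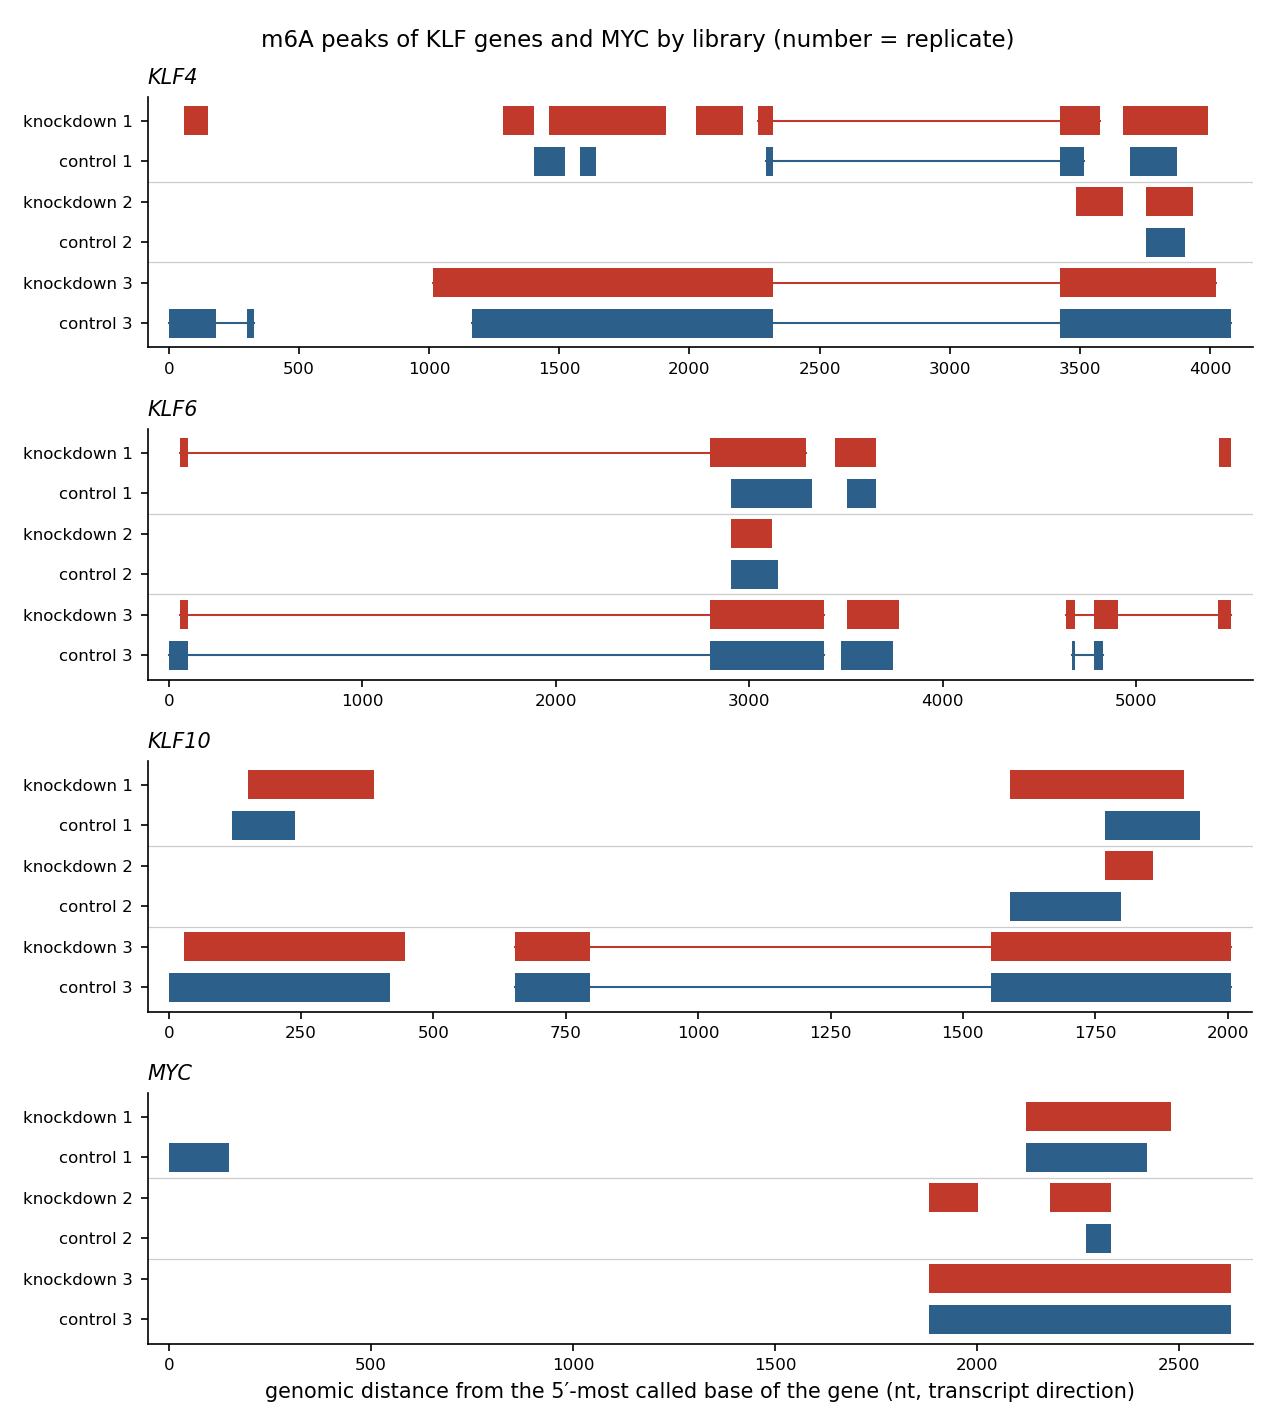
Peaks of KLF4, KLF6, KLF10 and MYC in each library (knockdown red, control blue), drawn against genomic distance in nt from the most 5′ called base. Thin lines join blocks of 1 peak across a gap. The KLF10 junction peak and the MYC peak of replicate 3 have the same ends in knockdown and control.

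Across the 10 genes the mean covered length was higher in the knockdown for 8 and lower for 2, EGR2 and EGR3. That count of 8 was 2 when either knockdown replicate 3 or control replicate 2 was left out, 5 when both libraries of replicate 1 were left out, and 5 with lengths scaled to the total of each list, an alternative chosen after seeing the data. Over all genes, the mean covered length was higher for 65.3% and lower for 32.9%. The median difference of the 10 was 63.7 nt, against 40.0 nt over all genes and 120.0 nt over genes called in all 6 libraries. In replicate 1, 7 of 10 genes were longer in the knockdown, against 80.7% longer and 17.6% shorter over all genes with a peak in that pair. The exceptions in that pair were EGR2, EGR3 and MYC. In replicate 2, where 8 of the genes had a peak, 4 were longer and 4 shorter (52.4% and 43.0% over all genes), and in replicate 3, 4 were longer and 5 shorter (48.2% and 46.7% over all genes). No gene of the 10 had every knockdown library above every control library or the reverse, which held for 0.285% and 0.0285% of all genes. The exact test over all 10536 genes gave an adjusted p of 1 for each of the 10, and 0 genes (0.0%) passed an adjusted p of 0.05. Since 3 against 3 libraries cannot give an exact p below 0.1, the design cannot pass that threshold. The unadjusted p was at that floor for 33 genes (0.313%), none of them among the 10.

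**Figure D4:**
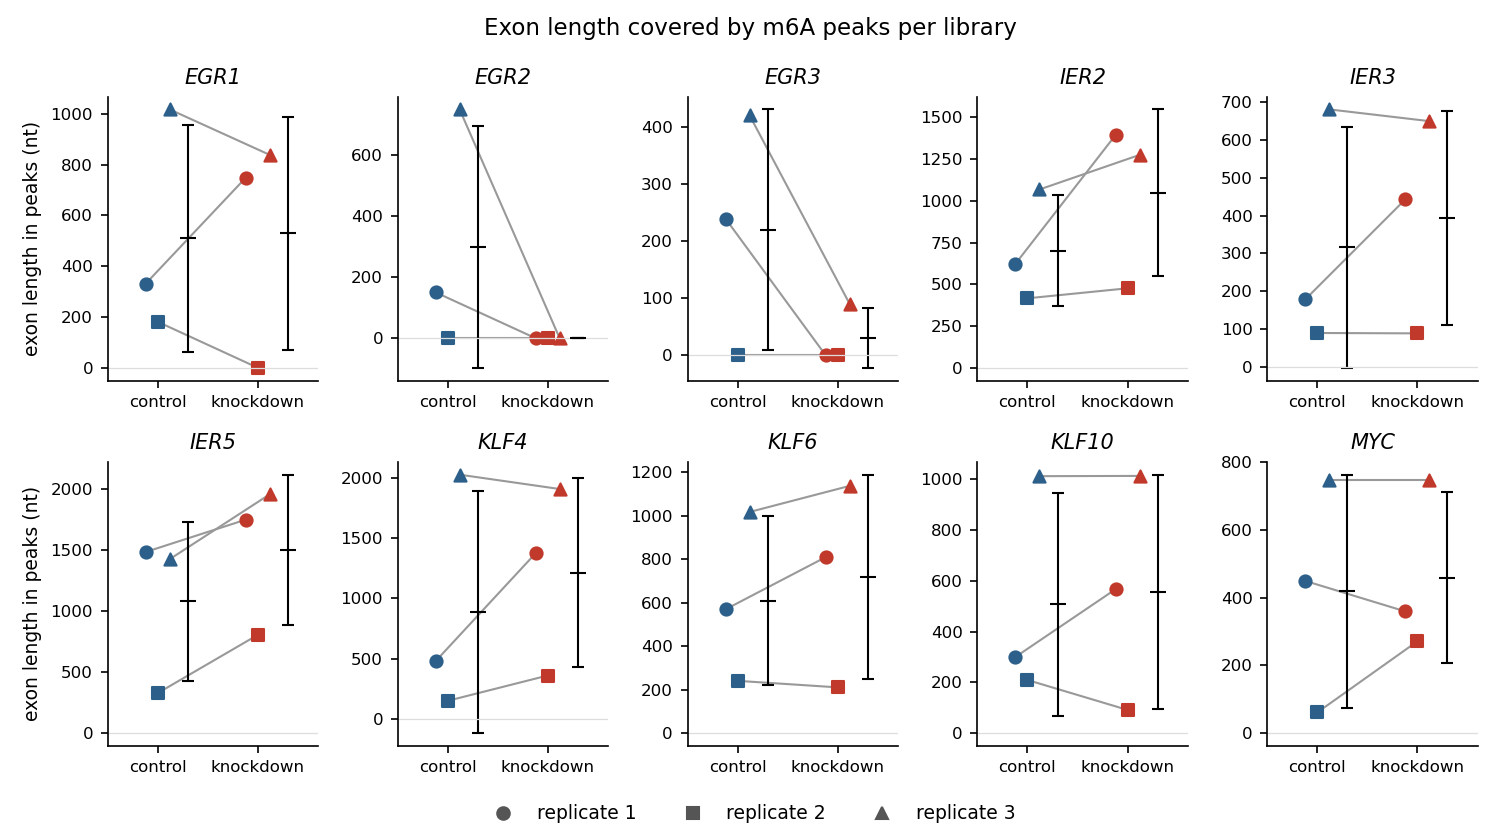
Exon length inside peaks (nt) of each gene in each library, with lines joining knockdown (red) and control (blue) of the same replicate number and black bars for the mean and SD of 3 libraries. Knockdown is the longer in every pair for IER2 and IER5, EGR2 is at 0 in the knockdown, and the ranges of the conditions overlap for each gene.

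Gains and losses of whole sites were also set beside those over all sites. Counting each site once per pair, 2 of 57 (3.51%) were called in the knockdown and not in its control, against 12.8% over all 21675 sites, and 9 of 57 (15.8%) were called in the control and not in the knockdown, against 8.87%. Sites called in all 6 libraries can be neither gained nor lost, and they were 7 of the 19 sites here, against 12.7% of all sites. All 7 lay outside the EGR genes, so EGR sites had more room to change than the others. The 2 gains lay in KLF4 and KLF6, both in replicate 1. Of the 9 losses, 7 lay in EGR genes, 1 in KLF4 and 1 in MYC. By replicate number, 3, 1 and 5 of the losses came from replicates 1, 2 and 3. Without either library of replicate 3 the losses were 4, and without either library of replicate 1 the gains were 0. With the best-scored 50% of each list the losses were 6 and the gains 5, and EGR2 was then still called in control replicates 1 and 3. EGR3 was then called in control replicate 1 alone, and EGR1 in replicates 1 and 3 of both conditions. The first EGR1 site became a gain in replicate 1, since its knockdown peak (percentile 61.5) was kept and its control peak (percentile 32.7) was not. A knockdown call of EGR2 could not arise there, since the filter only removes peaks. Sites in 1 gene share its RNA and are not independent.

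Within their lists, the best-ranked gene of the 10 was IER5 in knockdown replicates 2 and 3 and control replicate 1, IER2 in knockdown replicate 1, KLF6 in control replicate 2 and MYC in control replicate 3. The best IER5 peak stood at percentiles 93.7, 92.4 and 94.2 in the knockdown and 93.6, 50.0 and 86.6 in the controls. EGR3 had the lowest best peak of any called gene, at 2.02 in knockdown replicate 3. The best peaks of KLF4 and KLF6 stood at percentiles 33.1 to 78.8 and 44.6 to 75.1 over the 6 lists. Of the 88 peaks, 12 (13.6%) spanned more than 1 block, all in KLF4, KLF6 and KLF10, against 13.0% of all 81380 peaks.

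**Figure D5:**
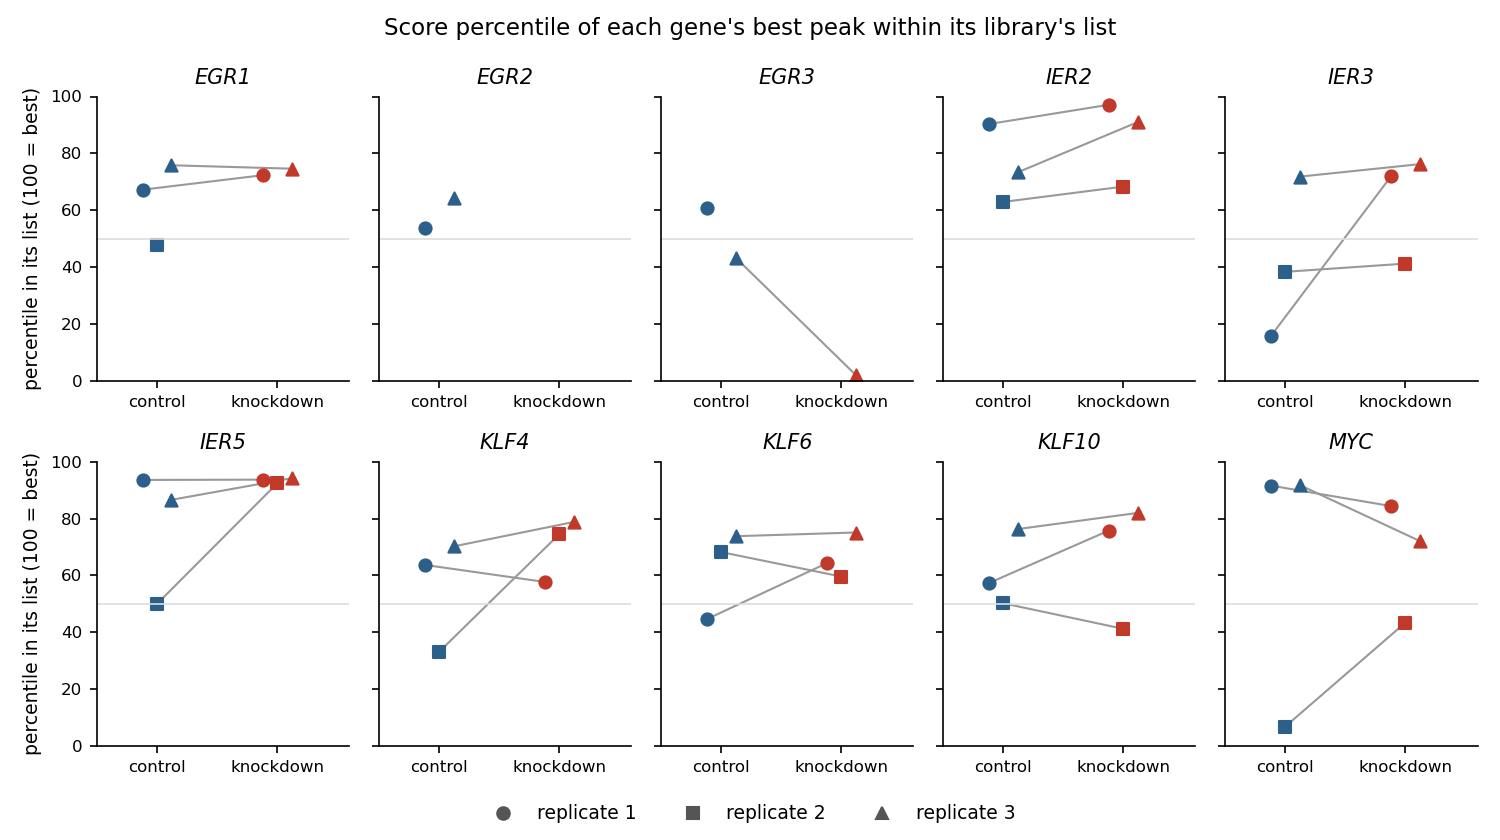
Percentile of the best peak of each gene within its own list (100 is the best score, grey line at 50), for control (blue) and knockdown (red), with the same replicate number joined by a line. IER5 lies at 86.6 or above in 5 of 6 libraries and the EGR3 peak of knockdown replicate 3 lies at 2.02.

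Other genes with a like pattern were sought by the summed absolute difference of covered length over the 6 libraries, for members called in at least 3. The nearest gene was MTRES1 for EGR1 (204 nt apart in sum), PARD6A for EGR3 (141 nt), PXN for IER2 (416 nt), PTPMT1 for IER3 (129 nt) and ZNF503 for IER5 (561 nt). It was MED13L for KLF4 (483 nt), POLR3E for KLF6 (291 nt), ASNSD1 for KLF10 (181 nt) and DLX4 for MYC (312 nt). PARD6A, for example, covered 0, 0 and 177 nt in the knockdown and 236, 0 and 471 nt in the controls. The measure follows the length of the lists as well as the gene.

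Of 45 other early response genes, 41 had a peak and 16 were called in all 6 libraries (23.3% over all genes). More knockdown than control libraries called 10 of the 41 (26.1% over all genes), fewer called 5 (17.1%) and an equal number called 26. Each of these 15 differed by 1 library. The first 6 of them by symbol were ARC, ATF3, CSRNP1 and DUSP4, called in more knockdown libraries, and BTG1 and CCN2, called in fewer. DUSP4, a phosphatase of MAP kinases, covered 961, 91 and 1350 nt in the knockdown and 181, 0 and 631 nt in the controls. BTG1, an antiproliferative cofactor of mRNA deadenylation, covered 391, 0 and 481 nt in the knockdown and 541, 61 and 572 nt in the controls. EGR4, the remaining EGR gene, had no peak in any library. The median difference of covered length over the 41 was 108 nt, and 0 passed the adjusted test. Of the 41, 11 were longer in the knockdown in all 3 pairs and 2 shorter (13.0% and 1.42% over all genes). Among all genes called in all 6 libraries those shares were 34.1% and 2.08%, and 16 of the 41 were such genes.

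Among 14 other KLF genes, 11 had a peak, with 3 called in all 6 libraries (23.3% over all genes). Of the 11, 3 were called in more knockdown libraries (26.1% over all genes) and 1, KLF2, in fewer (17.1%). KLF2 covered 180, 0 and 270 nt in the knockdown and 361, 150 and 330 nt in the controls, shorter in each pair. KLF16 was called in 3 knockdown libraries (179, 179 and 358 nt) and only in control replicate 3 (239 nt). Their median difference was 20.3 nt. Of 12 genes of the MYC network, which dimerise with MYC or MAX or act beside them, 11 had a peak. Of the 11, 2 (MAX and MXD1) were called in more knockdown libraries and 3 (MYCN, MLX and ZBTB17) in fewer, beside the same 26.1% and 17.1%. MAX, the partner of MYC, covered 272, 0 and 391 nt in the knockdown and 0, 0 and 630 nt in the controls. The network's median difference was 29.0 nt, and neither list held a gene past the adjusted test. KLF2, KLF16, MAX and the other genes of these last lists were named after their values were seen.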

How the data were processed

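Peak lists of 6 m6A immunoprecipitates of 143B cells were analysed. Per the submitters' processing notes, CASAVA 1.8.2, TopHat2, SAMtools and the hg19 build were used; what each did, the peak caller, its threshold and any use of input reads are not given in the sources. The authors deposited 1 list per library. The score the authors deposited was read as a p-value because it never exceeded 0.011, and how it was computed is not stated. It served only to rank or filter within a list. Positions were counted from 1.

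Covered length was the exon bases of a gene's peaks. Peaks of all lists were joined into 21675 sites where exon blocks overlapped by at least 1 bp on a strand. Gene numbers were named through RefSeq (GRCh38.p14, names only), with 10500 of 10536 matched. Conditions were compared by a two-sided exact permutation test over libraries with Benjamini-Hochberg adjustment over all genes, and a sign-flip test of pairs. Numbers pair the libraries because the labels tie each to a method; deviations of same-numbered libraries correlated at 0.24, 0.31 and 0.29 across sites. The code was tested on simulated lists. The analysis used Python 3.11.15 and pandas 2.3.3. The 10 genes, the lists and the tests were chosen with earlier results of these data known. All 10 genes were named, with, for each called in at least 3 libraries, the gene nearest in covered length, and up to 6 other early genes with the largest difference in libraries called. Alternatives were shorter, equal or scaled lists, peaks of at least 100 nt, other joining rules and libraries left out.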

Additional observations from a re-analysis of the deposited data

How the results depend on the processing

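EGR2, EGR3, IER2 and IER5 kept the sign of their difference in covered length under each of the 14 alternatives run. In 1 of these, the replicate block, no sign could turn, since it changes only the test and not the difference. For EGR2 the sign was fixed in advance throughout, because it had no knockdown peak and no alternative adds peaks. EGR3 had 1 knockdown peak, of 90 nt, so its sign had little room to turn. No alternative brought any of the 10 genes past the threshold, which a design of this size cannot reach. In the replicate block, the exact sign-flip test of the pairs gave p = 0.25 for IER2 (346.0 nt) and IER5 (424.7 nt). That is the floor of this test for 3 pairs, so no call could change. Equal list size within pairs and peaks of at least 100 nt left the differences of IER2 and IER5 unchanged. Leaving out libraries or numbers gave -180.0 to 283.3 nt for EGR1, -50.3 to 259.2 for IER3, -178.3 to 302.8 for KLF10, -38.7 to 898.8 for KLF4, -99.2 to 364.3 for KLF6 and -139.0 to 204.0 for MYC. The range was -449.0 to -75.0 nt for EGR2, -299.5 to -89.5 for EGR3, 133.5 to 632.2 for IER2 and 48.8 to 774.3 for IER5. Without control replicate 3, EGR2 was at -75.0, EGR3 at -89.5 and IER2 at 528.8 nt. Without control replicate 2, EGR2 was at -449.0, EGR3 at -299.5, IER2 at 202.8 and IER5 at 48.8 nt. Without knockdown replicate 1, IER2 was at 173.2 nt. Without knockdown replicate 2, IER2 was at 632.2 and IER5 at 774.3 nt, and without knockdown replicate 3, IER5 was at 197.8 nt. The signs turned without knockdown replicate 3 or control replicate 2 for these 6 genes, without control replicate 1 for EGR1 (-70.3) and KLF10 (-53.7), and without knockdown replicate 1 for EGR1 (-90.7). They also turned without replicate 1 for EGR1 (-180.0), IER3 (-16.0) and KLF10 (-58.5), and without replicate 2 for MYC (-45.0). Leaving out 1 library breaks its pair and leaves the methods unbalanced between the conditions. Knockdown replicate 3 had 7855 kb inside peaks and control replicate 2 had 961.2 kb, the most and the least of all libraries. Their partners were close to them, with 7854 kb in control replicate 3 and 1084 kb in knockdown replicate 2. Whether shifts from leaving out 1 library follow list length was not tested. EGR1 was at -40.0 nt in the best-scored 50% of each list. With lengths scaled to each list's total, an alternative chosen after seeing the data, EGR1 was at -257.4, KLF10 at -175.4 and KLF6 at -83.2 nt, and 5 genes were longer in the knockdown in place of 8. That count ranged from 2 to 8 when libraries were left out. Sites gained over the pairs numbered 5 in the best-scored 50%, 1 at equal list size within pairs and 0 to 2 with libraries left out (2 in the full lists), and sites lost 4 to 8 (9 in the full lists), in part because leaving out a library removes its pair. Genes called in more knockdown libraries numbered 3 in the best-scored 50%, 2 among peaks of at least 100 nt and 0 in the full lists. Joining peaks only where they shared 50% of the shorter one gave 2 gains and 9 losses, extension by 100 bp gave 2 and 8, and peaks of at least 100 nt gave 3 and 11. The best-scored 50% gave 6 losses. Without counts, no limit from depth can be given.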
